A study of Mus musculus with 24 samples.

Results

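At 10686 places on the mouse chromosomes, a region at or within 1 kb of an end of a protein-coding gene had an open-chromatin peak in every library. The series is on B-cell progenitors. These constantly open gene-end regions were chosen by their deposited ATAC-seq peaks. Overlapping entries of a library's peak list were joined into merged peaks on chromosomes 1 to 19 and X, and the merged peaks of the 24 libraries were joined into 159326 regions. A region belonged to the set where each of the 24 lists had a peak in it, as 26804 regions did, and where it overlapped the 1 kb on either side of the start or the end of a protein-coding gene. The 10686 regions are 6.71% of all regions and 39.9% of those with a peak in every library, and the other 16118 regions with a peak in every library serve as the comparison below. Since a peak in every library was the entry condition, the presence of a peak is no result here, and gene ends that close fully at a stage are not among the regions. No filter on low values was used and all 10686 were tested.

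In ATAC-seq a transposase inserts sequencing adapters into DNA that is not wrapped in nucleosomes, so that read density reports how accessible a stretch of chromatin is. The cells came from mouse bone marrow and were sorted as 3 successive B-lineage populations. The 6 groups of 4 libraries were Mki67-/- pre-pro-B, Mki67-/- pro-B and Mki67-/- small pre-B cells, and WT pre-pro-B, WT pro-B and WT small pre-B cells. Mki67 encodes Ki-67, a protein of proliferating cells that coats mitotic chromosomes and is widely used to stain cells in cycle. The labels give the Mki67-/- genotype with no Cre driver or tissue, and the deleted stretch, strain, age and sex are not given in the sources used here. Nothing in the labels ties a library to a mouse, so a p-value below reflects how far the libraries of a group lie apart, which may be technical spread. Sorting markers are likewise not given.

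Active and poised promoters are the sites where nucleosomes are most regularly displaced, and in mammals many of them are CpG islands, stretches rich in GC and in the CpG dinucleotide that are accessible in most cell types. Promoters of genes that every cell uses often carry GC boxes, CCAAT boxes or Ets sites instead of a TATA box. In the bone marrow, pre-pro-B cells have only begun to take on the B-cell programme, pro-B cells divide and join the gene segments of the immunoglobulin heavy chain, and small pre-B cells have left the cell cycle and join those of the light chain. Factors such as Ebf1, Pax5 and Foxo1 drive these steps.

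The bases just before the transcription start are shown for 6 genes whose start lies in such a region. Narf and Rnf44 stand for the strongest regions, Cdk6 for the widest, Srp54c and Lyplal1 for those that differed most between genotypes, and Pou2af1 for the one that differed most between stages. Each sequence is the 250 bases before the start on the gene's own strand, from the RefSeq promoter table on GRCm38.p6, the assembly that mm10 names. They lie at chr11:121236986-121237235, plus strand (Narf), chr13:54693961-54694210, minus strand (Rnf44), chr5:3343643-3343892, plus strand (Cdk6), chr12:55230127-55230376, plus strand (Srp54c), chr1:186117311-186117560, minus strand (Lyplal1) and chr9:51213440-51213689, plus strand (Pou2af1). Capitals mark every match, on either strand, to 9 short motifs: GGGCGG (the GC box), CCAAT (bound by NF-Y), CCGGAA (Ets core), TATAAA (the box bound by TBP), AAGATGG (YY1), TGACGTCA (cAMP response element), TTTCCCGC (E2F), CACGTG (E box) and TGTGGTTT (Runx). Overlapping matches were all counted, and a match is a run of letters, not a shown binding site.
Narf: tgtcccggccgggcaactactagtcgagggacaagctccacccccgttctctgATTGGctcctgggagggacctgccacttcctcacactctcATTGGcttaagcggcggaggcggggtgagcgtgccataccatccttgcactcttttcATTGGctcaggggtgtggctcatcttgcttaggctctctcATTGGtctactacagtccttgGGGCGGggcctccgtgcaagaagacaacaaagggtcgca
Rnf44: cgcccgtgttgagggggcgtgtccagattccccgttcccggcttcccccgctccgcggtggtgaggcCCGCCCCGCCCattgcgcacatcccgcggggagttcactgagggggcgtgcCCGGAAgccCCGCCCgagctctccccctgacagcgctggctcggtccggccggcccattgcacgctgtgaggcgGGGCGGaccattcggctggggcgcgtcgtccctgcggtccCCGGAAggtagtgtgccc
Cdk6: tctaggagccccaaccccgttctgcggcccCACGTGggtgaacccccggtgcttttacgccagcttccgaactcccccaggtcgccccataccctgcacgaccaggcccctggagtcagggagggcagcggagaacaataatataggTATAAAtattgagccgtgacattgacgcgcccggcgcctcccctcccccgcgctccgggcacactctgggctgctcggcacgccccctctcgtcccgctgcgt
Srp54c: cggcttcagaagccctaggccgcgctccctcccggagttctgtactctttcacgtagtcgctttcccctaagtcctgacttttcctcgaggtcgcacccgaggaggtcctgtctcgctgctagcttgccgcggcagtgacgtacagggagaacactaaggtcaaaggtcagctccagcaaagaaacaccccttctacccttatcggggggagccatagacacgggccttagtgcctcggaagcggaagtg
Lyplal1: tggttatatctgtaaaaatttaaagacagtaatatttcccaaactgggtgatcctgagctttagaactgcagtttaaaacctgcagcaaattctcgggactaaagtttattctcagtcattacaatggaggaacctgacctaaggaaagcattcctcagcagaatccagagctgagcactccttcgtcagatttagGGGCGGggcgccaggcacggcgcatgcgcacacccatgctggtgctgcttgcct
Pou2af1: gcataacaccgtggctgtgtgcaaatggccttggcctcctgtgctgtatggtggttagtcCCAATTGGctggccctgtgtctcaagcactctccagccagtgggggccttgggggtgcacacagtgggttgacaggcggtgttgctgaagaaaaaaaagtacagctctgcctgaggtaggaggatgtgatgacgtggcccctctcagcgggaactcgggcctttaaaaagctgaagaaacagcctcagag
The Narf promoter held 4 CCAAT boxes, all read on the opposite strand as ATTGG, and 1 GC box. Rnf44 held 4 GC boxes and 2 Ets cores, and Cdk6 held 1 TATA box and 1 E box. In Pou2af1 the run CCAATTGG is 2 overlapping CCAAT boxes, 1 on each strand, and Lyplal1 had 1 GC box. None of the 9 motifs occurred in the 250 bases of Srp54c.

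The promoter table held 21045 promoters of 17274 genes on these chromosomes, each a window of 300 bases from 250 before to 50 after the start, and 9256 of them (44.0%) started inside 7417 of the gene-end regions. These promoters were richer in GC than promoters at large, with a median of 62.0% GC and 22 CpG dinucleotides, against 48.3% and 3 for the 8388 promoters whose start lay in no region, and 56.7% and 13 for all 21045. A GC box occurred in 70.0% of the promoters in gene-end regions and in 46.7% of all promoters. An Ets core occurred in 32.7%, against 18.9% of all. TATA boxes ran the other way, with 5.93% against 12.7% of all. CCAAT was about as frequent in the regions (39.6%) as in all promoters (38.5%). Within the set, however, it occurred in 56.2% of the promoters in the 20% of regions with the highest ranks and in 31.2% of those in the 20% with the lowest. The YY1 motif was in 7.76% against 6.28% of all, the cAMP response element in 3.79% against 2.26%, the E2F motif in 2.34% against 1.42%, the E box in 11% against 7.91% and the Runx motif in 1.05% against 1.62%. These shares were not tested.

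Peak lists held 54387 to 88946 merged peaks per library. The local background read coverage behind the peak statistics, recovered from them as the only measure of depth in the lists, was 3.26 ± 0.99 in Mki67-/- and 4.29 ± 1.26 in WT pre-pro-B libraries, 2.92 ± 0.68 and 3.15 ± 0.21 at the pro-B stage, and 2.58 ± 0.51 and 3.12 ± 0.60 at the small pre-B stage (SD, n = 4 each). Mean coverage was thus lower in Mki67-/- libraries at each stage, while the ranges of the genotypes overlapped at each stage. The highest pro-B value, 3.73, was that of Mki67-/- replicate 3. Libraries 4 of Mki67-/- pre-pro-B and 1 of Mki67-/- small pre-B had the lowest coverage, 1.86, and library 1 of WT small pre-B had 85621 merged peaks, against 63332 to 69941 in the other WT small pre-B libraries. Counts are therefore also given without these 3 libraries where they moved by more than 1.5 times. As a check of the labels, peaks at gene ends were counted for marker lists. Of 40 early B-lineage genes, 34 had one in each Mki67-/- and 33 to 34 in each WT pre-pro-B library, all 40 in every pro-B library, and 39 in Mki67-/- and 38 in WT small pre-B libraries. No pre-pro-B library had a gene-end peak at Pax5 or Rag2, while each pro-B and small pre-B library did. Of 20 stem and multipotent progenitor genes, 17 to 18 had a peak in pre-pro-B, 19 to 20 in pro-B and 15 to 19 in small pre-B libraries, and of 30 genes of other tissues 6 to 9, 9 to 11 and 6 to 10. Of 23 T, NK and innate lymphoid genes, 21 to 23 had a peak in pre-pro-B, 17 to 19 at the pro-B stage and 12 to 16 at the small pre-B stage. Of 22 myeloid genes, 16 to 21, 15 to 19 and 12 to 15 did, with Elane at none, and of 17 erythroid genes 8 to 11, 10 to 11 and 9 to 10 did, with Gata1, Hbb-bs, Hba-a1 and Alas2 at none. Open chromatin at a marker does not show that it is transcribed, and the part of other cells in the stage differences was not tested.

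The start of Mki67 itself lay in 1 of the regions, with the stretch that all libraries share at chr7:135716337-135716829. Its rank percentile, which places the highest −log10 q of a region among the 26804 constant regions of the same library with 100 the strongest, was 76.2, 72.2, 80.4 and 77.4 in Mki67-/- libraries, against 72.4, 82.7, 72.8 and 74.7 in WT libraries of pre-pro-B cells. In pro-B cells it was 81.4, 82.7, 80.7 and 77.8 in Mki67-/- libraries, against 77.6, 83.99, 83.5 and 83.2 in WT libraries. In small pre-B cells it was 71.5, 80.2, 79.4 and 79.8 in Mki67-/- libraries, against 78.5, 77.9, 78.5 and 71.8 in WT libraries. The groups overlapped at every stage, and the mean difference over stages, Mki67-/- minus WT, was 0.168 ± 1.39 (SE) points, with an adjusted p of 0.960 (limma). An open promoter does not check the knockout label, since the deleted stretch is not given. Between stages the region rose by 5.23 points in pro-B relative to pre-pro-B cells (adjusted p = 0.00658), a call lost among all merged peaks. Its step of -4.17 points to small pre-B cells (adjusted p = 0.0369) lost its call in 8 of the 24 runs that left out 1 library (Mki67-/- pro-B 1, 2 or 3, Mki67-/- small pre-B 1, WT pro-B 2, 3 or 4, or WT small pre-B 4) and with WT libraries alone, and was 1.66 points with ranks by fold enrichment. The width of the region ran from 916 to 1552 bp in pre-pro-B, 815 to 1258 bp in pro-B and 503 to 895 bp in small pre-B libraries, a relative change of -0.48 on the log2 scale in the last step (adjusted p = 0.000274).

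The set was made mostly of promoters. Of the 10686 regions, 8048 (75.3%) covered or lay within 1 kb of the start of at least 1 gene, and 637 (5.96%) did so at 3′ ends only. For 2001 (18.7%) the strand of the gene was not known, so that start and end could not be told apart. All genes on chromosome 18 fall in that last class. Together the regions lay at or within 1 kb of an end of 11354 of 21631 protein-coding genes (52.5%). They lay at or within 1 kb of the start of 8772 of the 17274 genes with a known strand (50.8%). A stretch open in all 24 libraries, with a median of 543.5 bp, existed in 10580 regions, while in 106 the libraries' peaks did not share a base. In 4489 regions every library had exactly 1 merged peak.

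A typical region was wide and strong. The median over regions of the covered width was 848.8 bp (10th percentile 493.8, 90th percentile 1237) and of the rank percentile 69.5 (24.4 and 94.4), against 533 bp and 37.0 for the other constant regions. Regions at starts had a median of 871 bp and rank 73.4, and those at 3′ ends 498.5 bp and rank 34.1, close to the other constant regions. The 927 regions at or within 1 kb of 2 annotated starts had 953.5 bp and rank 82.3, against 860 bp and 71.6 for the 7106 with 1 start. Across the 10686 regions, width and rank had a Spearman correlation of 0.38, which describes regions of the same libraries and carries no p. A region held on average 2.91 summits, against 2.01 in the other constant regions. In the 7106 regions with 1 annotated start, the strongest summit lay at a median of −4 bp from that start (quartiles −61.9 and 143.4 bp). A minus sign means upstream, and 69.7% of these summits lay within 200 bp. In the same 7106 regions the summit moved little between libraries, with a median interquartile range of 20.75 bp.

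**Figure D1:**
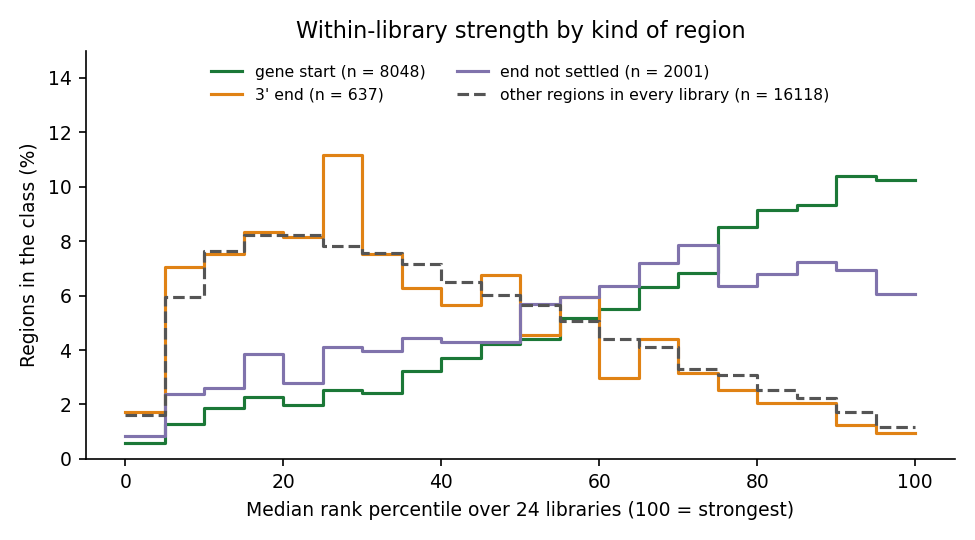
Share of regions (y axis, percent of the class) by median rank percentile over the 24 libraries (x axis, bins of 5 points, 100 the strongest) for regions at gene starts, at 3′ ends, at ends that could not be settled, and for the 16118 other constant regions. Gene starts pile up at high ranks (median 73.4), while 3′ ends (median 34.1) lie with the other regions (median 37.0).

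Ranks of gene-end regions varied less over the libraries than those of the rest, and more of them stood near the upper bound of the scale, where a percentile can vary little. The SD of a region's rank over the 24 libraries had a median of 7.24 points, against 11.4 for the other constant regions, and was under 5 points in 3219 regions (30.1%, against 5.78%). Among regions with a median rank over 40 and up to 60 the median SD was 10.9 points in 1960 gene-end and 13.3 in 3744 other regions, over 60 and up to 80 it was 7.58 and 11.3, and over 80 it was 3.79 and 7.28. At ranks up to 20 it was 8.62 and 9.33. The SD was over 20 points in 477 regions (4.46%, against 16.8%). The SD was over 20 points in a larger share of the 3′ ends, 12.1%, than of the starts, 3.57%. In 2625 regions (24.6%) the peak stood above percentile 90 of its list in every library. At the edge of the rule, the lowest −log10 q of a region over the libraries had a median of 81.8 and was under 3 in 17 regions (0.159%). The 503 gene-end regions with a peak in 23 libraries had a median width of 418 bp and lay at percentile 45.8 of their lists, and the 269 with a peak in 22 libraries at 352 bp and percentile 42.0, against 848.8 bp and percentile 87.5 for the set. Regions whose nearest gene end was over 500 and up to 1000 bp away numbered 778, with 588 bp and percentile 72.5, and the 1120 constant regions just outside, at over 1000 and up to 2000 bp, had 554.2 bp and percentile 71.9.

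The widest region, with a median of 3025 bp, was nearest the 3′ end of Gm20783 and also lay at or within 1 kb of a gene start. After it came Cdk6 (2625 bp), a kinase that starts the cell cycle, Jund (2622 bp), a subunit of the AP-1 transcription factor, Jade2 (2576 bp), which is part of a histone acetyltransferase complex, and Cxxc5 (2309 bp), a CpG-binding protein. At Cdk6, whose upstream sequence is printed above, this wide region was not among the strongest, with ranks between 37.1 and 53.8 (median 46.5) in the 8 pre-pro-B libraries, between 53.9 and 60.1 (median 58.4) in the 8 pro-B libraries and between 66.3 and 71.04 (median 69.7) in the 8 small pre-B libraries. The 5 narrowest regions, 169 to 203 bp, lay at Ak9, H2ac18, Tmem192, Gm20385 and Mucl3. H2ac18 is 1 of a family of near-identical histone genes, where reads may be shared between copies. By rank the strongest regions were Mtmr4 (median 99.97), a lipid phosphatase, Narf (99.96), Ankhd1 (99.95), Rnf44 (99.95), a ubiquitin ligase, and the 3′ end of Lars2 (99.94), the mitochondrial leucyl-tRNA synthetase. The 5 weakest were Cavin1 (1.01), a coat protein of caveolae, Nptx1 (1.32), Zar1 (1.32), Clstn1 (1.72) and Arhgef40 (1.78), and none of these 5 had a stretch shared by all libraries. Among regions of middling rank, the steadiest were Tex22 (SD 2.27 points), Kpna2 (2.33), a nuclear import receptor, C030006K11Rik (2.70), Cep164 (2.83), a protein of the base of cilia, and Tmem177 (2.86). The Tex22 region kept to ranks between 70.3 and 76.6 (median 74.05) in the 8 pre-pro-B libraries, between 70.2 and 76.1 (median 72.95) in the 8 pro-B libraries and between 71.5 and 77.96 (median 75.8) in the 8 small pre-B libraries.

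The regions were widest in pre-pro-B cells. Their median width per library was 997.8 ± 70.4 bp in Mki67-/- and 1076 ± 97.8 bp in WT pre-pro-B cells, 837.4 ± 45.9 and 815.8 ± 17.5 bp in pro-B cells, and 786.2 ± 30.2 and 790.9 ± 29.2 bp in small pre-B cells (SD, n = 4 each). All 8 pre-pro-B libraries, at 906 bp and above, lay over all pro-B libraries, at 881 bp and below, while Mki67-/- and WT libraries overlapped at every stage. The other constant regions narrowed as well, with group means of 676 and 736.5 bp, 503.4 and 501.6 bp, and 474 and 474.1 bp in the same order. Summits per region followed, with group means of 3.55 and 3.93, 2.56 and 2.46, and 2.47 and 2.47. Gene-end regions made up 25.8% and 24.2% of the covered bases in Mki67-/- and WT pre-pro-B cells, 29.8% and 29.6% at the pro-B stage, and 33.3% and 32.2% at the small pre-B stage. Mean background coverage was also highest in pre-pro-B cells, as given above, but not in each library. Mki67-/- pre-pro-B replicate 4 had a coverage of 1.86 and a width of 906 bp. WT pre-pro-B replicate 2 had 2.52 and 934 bp, while coverage in pro-B libraries ran from 2.08 to 3.73. The part of coverage in these widths was not tested. For this reason widths are compared below as relative width, the log2 covered width of a region minus the median over the 26804 constant regions of the same library.

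**Figure D2:**
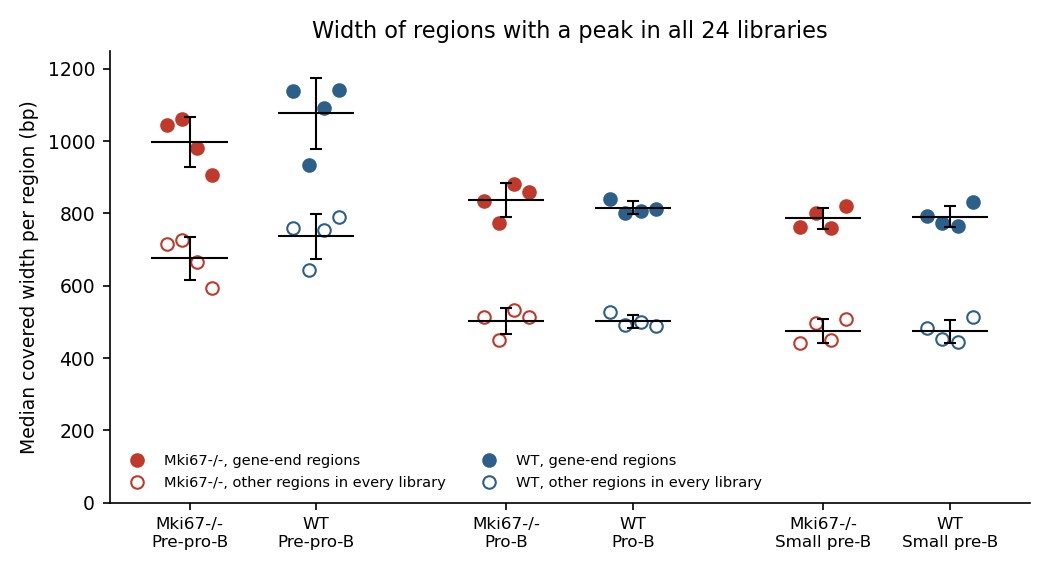
Median covered width in bp (y axis) of the 10686 gene-end regions (filled) and of the 16118 other constant regions (open) in each library, by genotype and stage (x axis), with the mean and SD of 4 libraries. The 8 pre-pro-B libraries lie at 906 to 1142 bp and the pro-B and small pre-B libraries at 760 to 881 bp.

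In the step to pro-B cells most regions changed their place in the ranking, in both directions. In pro-B relative to pre-pro-B cells, 3845 of 10686 rose and 4225 fell, 75.5% in all, where limma with Benjamini-Hochberg adjustment over all 26804 constant regions calls an adjusted p below 0.05. Of all 26804, 78% were called, 37.8% as higher and 40.2% as lower, so the gene ends were called about as often as constant regions at large. The sizes differed more: the median absolute difference was 8.69 points, against 15.4 in the other constant regions, and 45.3% of gene ends moved by over 10 points, against 64.5%. Among gene ends it was 8.1 points at starts, 14.3 at 3′ ends and 9.9 at ends not settled, so 3′ ends moved nearly as much as the other regions. Regions were not matched by rank here, and gene ends stand nearer the upper bound. The median signed difference was −0.35 points, against −0.43 over all regions tested. The balance of directions depended on the scale, with 4187 higher and 3344 lower by fold enrichment, 2854 and 4579 among all merged peaks of a library, and 3408 and 4672 over regions with a peak in at least 12 libraries. Promoters in regions that rose had a GC box in 75.8% and an Ets core in 26.1%, and those in regions that fell had them in 63.2% and 38.6%.

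Regions that rose were led by Pou2af1, the B-cell coactivator of octamer-binding factors. Its rank lay between 1.24 and 6.62 (median 2.41) in the 8 pre-pro-B libraries, between 93.2 and 96.7 (median 95.4) in the 8 pro-B libraries and between 95.5 and 97.8 (median 96.4) in the 8 small pre-B libraries. The difference was 92.4 ± 1.505 (SE) points (adjusted p = 1.51e-28), and no pre-pro-B library came near any later one. The region of Igll1, a component of the surrogate light chain of the pre-B receptor, ranked between 4.00 and 24.8 (median 6.83) in pre-pro-B, between 95.9 and 97.9 (median 96.7) in pro-B and between 69.8 and 87.7 (median 76.2) in small pre-B libraries, with steps of 87.4 and -19.7 points. Ebf1, which sets up the B-cell programme, stood between 8.30 and 34.7 (median 18.5) in pre-pro-B, between 86.2 and 91.9 (median 89.5) in pro-B and between 79.2 and 86.5 (median 84.8) in small pre-B libraries, a rise of 70.5 points. The others of the 5 with the smallest p included the regions nearest the starts of Gfra1 (87.96 points), a receptor subunit for glial growth factors, and Cibar2 (87.9). With them came Serpina3f (89.9), in a cluster of near-identical protease inhibitor genes where reads may be shared, and the 3′ end of Pik3r5 (79.3), a regulatory subunit of phosphoinositide 3-kinase gamma. At Gfra1 the promoter start lies away from the stretch that all libraries share.

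Regions that fell were led by Spz1, a transcription factor of male germ cells, with ranks between 70.8 and 89.1 (median 81.1) in pre-pro-B, between 0.310 and 7.21 (median 1.56) in pro-B and between 9.74 and 25.9 (median 14.3) in small pre-B libraries. Its difference was -77.2 ± 2.51 (SE) points (adjusted p = 8.55e-22), and the lowest pre-pro-B library stood far above every later library. Ahdc1, a DNA-binding protein with AT hooks, ranked between 89.8 and 96.7 (median 92.96) in pre-pro-B, between 38.6 and 48.2 (median 41.7) in pro-B and between 52.03 and 60.5 (median 56.2) in small pre-B libraries, so it fell by 50.6 points and stayed in the middle of the ranking. The 3′ ends of Ttll4 (-67.1 points), a tubulin glutamylase, and Cep43 (-68.6), a centrosomal protein, and the start of Spaca9 (-67.7) completed the 5.

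Between pro-B and small pre-B cells fewer regions moved, and by less. In small pre-B relative to pro-B cells 2623 rose and 2404 fell, 47.0% of the 10686, while 57.5% of all 26804 were called, 30.6% as higher and 26.9% as lower. The median absolute difference was 3.97 points, against 9.12 in the other constant regions, and 22.5% moved by over 10 points, against 46.8%. Gene starts moved by a median of 3.6 points and 3′ ends by 8.39, with 45.6% and 60.4% called. Among the 637 regions at 3′ ends 236 rose and 149 fell. Ranked among all merged peaks of a library instead of among the constant regions, 1557 gene ends rose and 2672 fell at this step, and over regions with a peak in at least 12 libraries 3219 rose and 2093 fell, so the balance of directions depends on the scale.

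Of the 5 rises with the smallest p, 4 were at 3′ ends. The 3′ end of Arhgef2, a guanine nucleotide exchange factor that sits on microtubules, ranked between 12.5 and 21.5 (median 16.5) in pre-pro-B, between 1.37 and 31.3 (median 13.01) in pro-B and between 78.9 and 86.9 (median 81.8) in small pre-B libraries, with 67.8 ± 2.25 (SE) points between the last stages (adjusted p = 1.87e-19). The 3′ ends of Trim46 (54.2 points), Csnk1e (59.6), a casein kinase, and Litaf (68.6), a protein of late endosomes, followed. Cd74, the invariant chain that escorts MHC class II, had ranks between 22.2 and 46.6 (median 32.8) in pre-pro-B, between 3.46 and 19 (median 8.97) in pro-B and between 66.5 and 78.5 (median 72.96) in small pre-B libraries, lowest in pro-B cells and highest in small pre-B cells. The falls were led by Dnph1, an enzyme that cleaves modified nucleotides, with between 3.01 and 16.3 (median 9.35) in pre-pro-B, between 56.8 and 76.2 (median 64.1) in pro-B and between 0.155 and 16.1 (median 3.97) in small pre-B libraries. It was high in pro-B cells alone, and its step was -58.8 ± 2.16 (SE) points (adjusted p = 3.77e-19). Kcnh8 (-64.04 points), a potassium channel, Eml6 (-59.7), which binds microtubules, Ppp2r5e (-56.1), a regulatory subunit of a protein phosphatase, and Ints4 (-39.1), a subunit of the Integrator complex, fell with it.

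**Figure D3:**
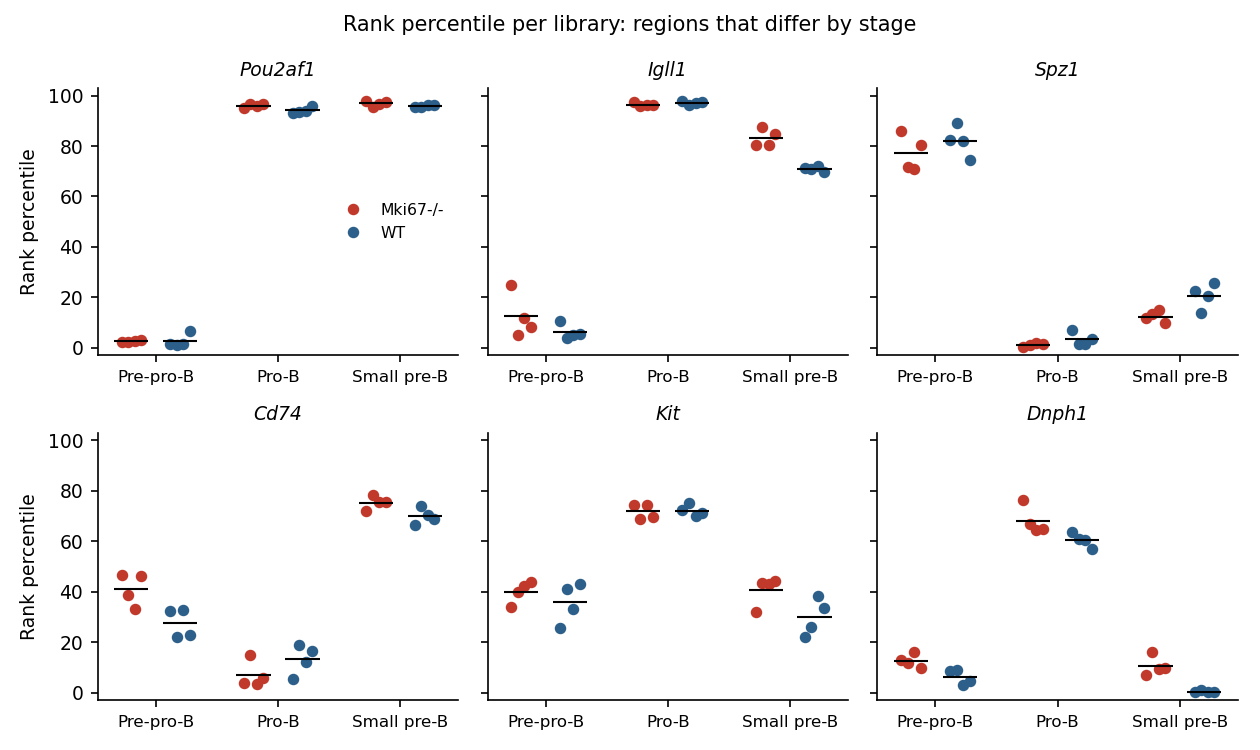
Rank percentile (y axis, 100 the strongest) of 6 gene-end regions in each Mki67-/- and WT library of the 3 stages (x axis), with bars at the mean of 4 libraries. Pou2af1 and Igll1 are low in pre-pro-B and above 90 in pro-B cells, Spz1 runs the other way, Cd74 is highest in small pre-B cells, and Kit and Dnph1 peak in pro-B cells.

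Relative width showed the same 2 steps. In pro-B relative to pre-pro-B cells 4005 regions were relatively wider and 2338 narrower, 59.4% of the set, against 61.7% of all 26804 (32.3% wider and 29.4% narrower). In small pre-B relative to pro-B cells 2014 were wider and 1276 narrower, 30.8% of the set, against 36.2% of all (20.8% and 15.4%). Median absolute differences were 0.19 and 0.10 on the log2 scale, against 0.31 and 0.18 in the other constant regions. These directions are relative: the median width of all constant regions fell by 0.36 on the log2 scale at the first step, and without the centring on it 335 gene ends were wider and 7984 narrower there, and 580 and 2069 at the second step.

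At the regions with the smallest adjusted p the change in width was large against the spread of the libraries, as that choice favours. Of the 10686 regions, 11.2% changed by at least 0.5 on the log2 scale at the first step and 5.47% at the second. The start of Hoxa7, a homeobox gene of early progenitors, was 999, 1026, 1026 and 997 bp wide in Mki67-/- and 1056, 1011, 1001 and 1037 bp in WT pre-pro-B libraries. In pro-B libraries it was 228, 234, 249 and 235 bp in Mki67-/- and 247, 250, 244 and 261 bp in WT, a relative change of -1.69 ± 0.06 (SE) on the log2 scale (adjusted p = 5.24e-15). It kept a similar width in small pre-B cells, 256, 255, 251 and 257 bp and 271, 274, 279 and 266 bp. Mroh1 (-1.36 on the log2 scale), Prrt1 (-1.49), Zfp87 (-0.95) and Dap (-1.14) narrowed with it. Those that widened most clearly in pro-B cells were the 3′ ends of Cfap61 (1.64), Gm15517 (0.94) and Plekho2 (1.13), the histone gene H2ac15 (0.95), whose copies may share reads, and Blk (1.11), a kinase of the B-cell receptor pathway. Blk measured between 402 and 452 (median 431) in pre-pro-B, between 688 and 745 (median 705) in pro-B and between 685 and 786 (median 764) in small pre-B libraries in bp. In small pre-B relative to pro-B cells Prrt1 (1.47), Arpc3 (1.62), a subunit of the actin-nucleating complex, Zmiz1 (0.96), Kif19a (1.42) and Coro1b (1.21) widened. The Plekho2 3′ end (-1.0), Mmp2 (-2.21), a matrix protease, Srxn1 (-0.89), the Fut7 3′ end (-1.54), a fucosyltransferase of selectin ligands, and Nlrp1a (-1.56), an inflammasome sensor, narrowed. With the strongest peak alone the calls of Dap and Srxn1 were lost.

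**Figure D4:**
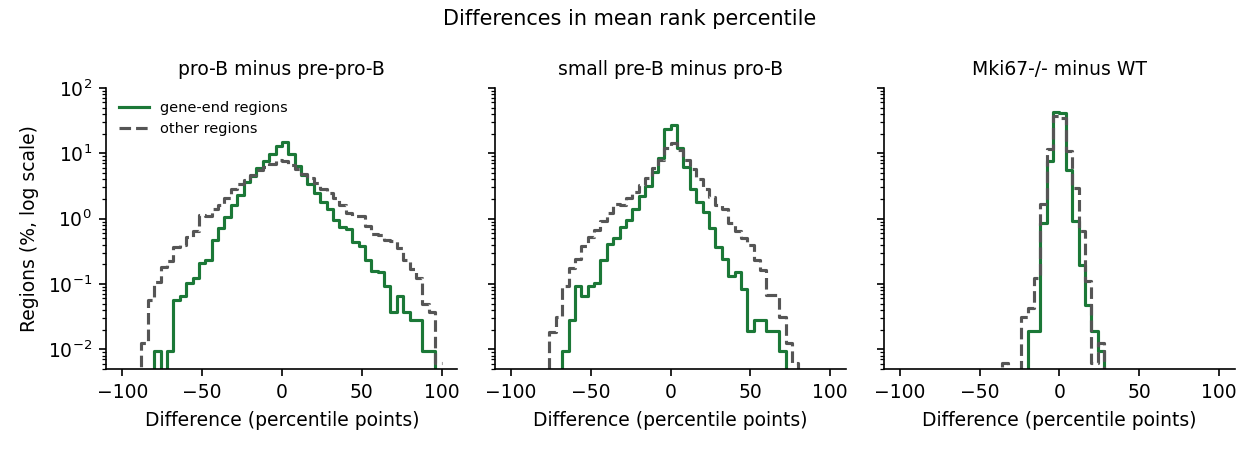
Share of regions (y axis, percent, log scale) by difference in mean rank percentile (x axis, points, bins of 4) for pro-B minus pre-pro-B, small pre-B minus pro-B and Mki67-/- minus WT averaged over stages, in the 10686 gene-end and the 16118 other constant regions. The median absolute difference is 8.69, 3.97 and 1.53 points in gene-end regions, and 15.4, 9.12 and 2.40 in the others.

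Genes of the core machinery of every cell were nearly all present, and their regions fell in rank more often than they rose at the first step. A gene-end region existed for 56 of 58 ribosomal protein genes, 30 of 31 proteasome genes, 34 of 34 spliceosome genes, 40 of 41 genes of RNA polymerase II and Mediator, 32 of 33 of respiratory complex I and 19 of 20 cytosolic tRNA synthetases. In pro-B relative to pre-pro-B cells, 12 of the 63 ribosomal regions rose and 34 fell (median −5.12 points). Of 30 proteasome regions 3 rose and 25 fell (median −7.52), and of 43 polymerase and Mediator regions 5 rose and 30 fell (median −5.83). Spliceosome regions numbered 10 up and 22 down of 38, complex I 8 and 18 of 35, and tRNA synthetases 2 and 11 of 22. Of all 26804 regions tested, 37.8% were called higher and 40.2% lower at this step, with a median of −0.43. Rpl32, a protein of the large ribosomal subunit, ranked between 83.1 and 97.2 (median 93.4) in pre-pro-B, between 45.5 and 62.7 (median 54.6) in pro-B and between 46.8 and 61.6 (median 54.97) in small pre-B libraries, a difference of -37.9 points. Psmb4, a subunit of the proteasome core, ranked between 58.8 and 78.8 (median 70.4) in pre-pro-B, between 14.9 and 32.97 (median 26.4) in pro-B and between 18.8 and 36.2 (median 30.3) in small pre-B libraries, a difference of -43.3. Others that fell were Rps23 (-25.9 points), the region shared by Rplp2 and Pidd1 (-26.4), Psmd1 (-27.1), Snrpd1 (-36.8), a core spliceosome protein, Polr2k (-28.5), a small polymerase subunit, Cdk8 (-25.6), the Mediator kinase, Farsb (-25.3), the phenylalanyl-tRNA synthetase, and Ndufb2 (-22.7). Prpf8, the central spliceosome protein, in a region shared with Rilp, rose (29.6).

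At the second step these lists were more evenly split, with 9 ribosomal regions up and 8 down, 2 and 8 for the proteasome, 10 and 7 for the spliceosome, 9 and 9 for polymerase and Mediator, 7 and 7 for complex I, and 5 and 3 for tRNA synthetases. These lists hold 63, 30, 38, 43, 35 and 22 regions. The share called in each lay below the 57.5% called of all 26804 regions, 30.6% as higher and 26.9% as lower. It lay nearer the 47.0% called of the 10686 gene-end regions and the 45.6% of those at starts. These shares were not tested. Psma3 differed by -17.3 points in small pre-B relative to pro-B cells, a fall, while Aars, the alanyl-tRNA synthetase, was 21.3 higher. For cell-cycle genes, 34 of 37 DNA replication genes and 28 of 28 mitosis genes had a region. In pro-B relative to pre-pro-B cells 13 replication regions rose and 12 fell, among them Cdt1 (30.1 points), which licenses origins, and the 3′ end of Rfc3 (66.8), a clamp loader subunit, with ranks between 3.48 and 23 (median 9.82) in pre-pro-B, between 72.4 and 83.5 (median 80.4) in pro-B and between 82.3 and 89.5 (median 87.5) in small pre-B libraries. Mitosis regions rose in 6 and fell in 15 of 29 cases, among them Top2a (-23.7), which untangles DNA, and the region of Aurka and Cstf1 (-18.6). The replication list held 36 regions, and of all 26804 regions 37.8% were called higher and 40.2% lower at that step. In small pre-B relative to pro-B cells 7 replication regions rose and 12 fell, and 2 mitosis regions rose and 10 fell. Prim1, a primase subunit, was -24.04 points lower, Ccnb1 -12.5 and Cdc20 -11.9. The last of these has the opposite sign when regions are ranked by fold enrichment, at 2.81 points.

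Among lineage genes, more early B and stem and progenitor regions rose than fell at the first step. Of 40 early B-lineage genes 30 had a region, of 20 stem and multipotent progenitor genes 13, of 22 myeloid genes 11, of 23 T, NK and innate lymphoid genes 10, of 17 erythroid genes 7 and of 30 genes of other tissues 5. In pro-B relative to pre-pro-B cells 23 of the 36 early B regions rose and 8 fell (median +11.1 points), and in small pre-B relative to pro-B cells 18 rose and 7 fell (median +4.76), beside medians of −0.43 and 0.55 over all regions tested. Of all 26804 regions, 37.8% were called higher and 40.2% lower at the first step, and 30.6% and 26.9% at the second. At the second step Foxo1, a factor needed for light-chain recombination, ranked between 15.1 and 32.5 (median 23.3) in pre-pro-B, between 10.2 and 27.1 (median 23.9) in pro-B and between 54.8 and 68.4 (median 56.2) in small pre-B libraries, a rise of 36.4 points, and Cd79b, a signalling chain of the B-cell receptor, rose by 26.9. Stem and progenitor regions rose in 9 and fell in 2 of 15 cases at the first step (median +11.5), and rose in 3 and fell in 7 at the second (median −6.53). Kit, the receptor of stem cell factor, ranked between 25.7 and 43.6 (median 40.4) in pre-pro-B, between 69 and 74.99 (median 71.8) in pro-B and between 21.9 and 44.2 (median 35.9) in small pre-B libraries, highest in pro-B cells, with steps of 34.2 and -36.8 points, the second not called by fold enrichment. Lyl1, a basic helix-loop-helix factor of blood stem cells, stood between 11.8 and 33.9 (median 24.5) in pre-pro-B, between 87.4 and 91.9 (median 88.5) in pro-B and between 76.9 and 87.9 (median 86.05) in small pre-B libraries, and Nfe2 had steps of 49.02 and -23.8. T and innate lymphoid regions rose in 4 and fell in 4 of 11 cases at the first step, and in 3 and 7 at the second (median −8.51). At the second step Cd28, a T-cell costimulatory receptor, fell by 46.4 points to ranks between 1.60 and 27.99 (median 13.8) in small pre-B libraries. Thy1 had steps of 38.5 and -37.4.

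The remaining lists were mixed, beside 37.8% higher and 40.2% lower of all 26804 regions at the first step and 30.6% and 26.9% at the second. Immediate-early genes had a region in 23 of 25 cases, with 14 of 29 regions up and 7 down at the first step and 6 and 5 at the second. Egr1 (57.7 and -27.5 points), Ier2 (30.5) and Junb (30.04), all transcribed within minutes of a stimulus, rose in pro-B cells. MHC class I and antigen processing genes all had a region, 18 of 18, with 5 of 23 up and 11 down at the first step and 8 up and 2 down at the second. The 3′ end of Tap1, a chain of the peptide transporter, had steps of -28.4 and 27.5 points, lowest in pro-B cells. Myeloid regions rose in 4 and fell in 2 of 12 cases, then 3 and 3, with a rise of 36.5 points at the Irf8 3′ end in the first step. In the second step Csf1r rose by 20.9 points and Cebpa fell, with a difference of -20.6 points, a call lost with ranks by fold enrichment. Erythroid regions rose in 4 and fell in 3 of 8 cases, then in 3 and 0, with 43.2 points at Gfi1b in the first step. Regions of other tissues' genes rose in 1 and fell in 1 of 5 cases, then in 3 and 1. These lists were drawn up with earlier results of the same libraries known, and peaks at marker genes of other cells varied between stages as given above.

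Between genotypes few regions were called as different. In simulated data the genotype fits within a stage recovered 1.49% to 8.96% of added rank differences of 5 points. They recovered 17.9% to 32.8% of those of 10 points and 83.3% to 84.8% of those of 20 points, so smaller differences may go uncalled. For the set as a whole, the median rank was 69.5, 73.1, 73.5 and 71.6 in Mki67-/- and 70.5, 69.5, 71.8 and 73.2 in WT pre-pro-B libraries. In pro-B cells it was 68.2, 68.4, 69.2 and 69.03 in Mki67-/- libraries, all below the 69.3, 70.8, 69.6 and 69.8 of WT libraries. At the small pre-B stage it was 69.6 to 70.2 in Mki67-/- and 69.5 to 70.3 in WT libraries. Gene ends made up 73.8% to 75.3% of the strongest 1000 regions in Mki67-/- and 78.4% to 81.5% in WT pro-B libraries, without overlap, while the ranges overlapped at the pre-pro-B stage (82.5% to 88.0% and 82.9% to 85.1%) and the small pre-B stage (75.4% to 78.0% and 73.7% to 78.6%). These summaries were not tested.

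In pre-pro-B cells 80 of the 10686 were called, 70 higher and 10 lower in Mki67-/- than in WT (0.749%, against 0.53% of all 26804, 0.392% as higher and 0.138% as lower). This count hung on single libraries. Without 1 library it became 50, 590 and 41 when WT replicates 1, 2 and 3 were left out, and 176, 183, 40 and 40 when Mki67-/- replicates 1 to 4 were. It was 41 without the 3 libraries that stand apart and 27 with background coverage as a covariate. Ranked as normal scores, 31 were higher and 18 lower, and without the trend on the mean 16 and 6.

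The largest of these differences was at Srp54c, a copy of the gene for the signal recognition particle subunit that binds signal peptides, with the shared stretch at chr12:55230613-55230824. Its ranks were 52.4, 57.9, 57.8 and 46.3 in Mki67-/- libraries, against 22.4, 10.2, 23.6 and 14.96 in WT libraries of pre-pro-B cells. They were 55.6, 51.6, 58.9 and 56.1 in Mki67-/- libraries, against 34.98, 32.9, 25.9 and 33.8 in WT libraries of pro-B cells. In small pre-B cells they were 68.4, 61.6, 67.4 and 63.9 in Mki67-/- libraries, against 46.2, 41.01, 46.1 and 46.7 in WT libraries. Mki67-/- libraries lay above all WT libraries at every stage, by 35.8 ± 3.46 (SE), 23.7 ± 3.46 (SE) and 20.3 ± 3.46 (SE) points (adjusted p = 7.08e-07, 0.000237 and 0.000280). The mouse genome holds near-identical Srp54 copies side by side, so reads may be shared between them. The pro-B call was lost when regions were ranked among all merged peaks. Also higher in Mki67-/- pre-pro-B cells was Ifi27, an interferon-induced gene, with 61.4, 64.1, 58.6 and 54 in Mki67-/- libraries, against 35.8, 42.5, 29.1 and 43.3 in WT libraries (21.9 ± 2.91 (SE) points, adjusted p = 0.000144). Its groups did not overlap, in a region chosen by its small adjusted p. Sit1, an adaptor that restrains lymphocyte signalling, was 24.6 points higher, Msh5, a meiotic MutS protein, 14.1, and Sec22a, a protein of vesicle transport, 12.3. The Sit1 region is nearest its 3′ end but also lies at or within 1 kb of a gene start. The calls of Sit1 and Msh5 were lost with ranks by fold enrichment. Lower in Mki67-/- pre-pro-B cells were Ido1 (-18.96 points), which degrades tryptophan, Garem1 (-15), Tceal8 (-13.8), Pafah1b3 (-13.7) and Tarsl2 (-4.80), a tRNA synthetase. Leaving out 1 of the 24 libraries cost Pafah1b3 its call in 15 runs, Ido1 and Tarsl2 in 13 each, Garem1 in 6 and Tceal8 in 3 (Mki67-/- pre-pro-B 3 and WT pre-pro-B 1 and 4), and Ido1, Pafah1b3, Tarsl2 and Tceal8 lost it with coverage as a covariate. All 5 calls were lost by fold enrichment and among all merged peaks.

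In pro-B cells 432 regions were called, 107 higher and 325 lower in Mki67-/- (4.04%, against 3.54% of all, 1.31% as higher and 2.23% as lower). The balance depended on the scale, with 54 higher and 84 lower by fold enrichment, 15 and 212 among all merged peaks, and 77 and 518 over regions with a peak in at least 12 libraries. Leaving out WT pro-B replicate 2 or 3 gave 82 and 226 calls, and leaving out Mki67-/- pro-B replicate 1, 2 or 4 gave 218, 260 and 188. The 2 regions with the smallest p among those that fell were Hes1, a repressor switched on by Notch, at chr16:30064217-30064413, and Hsp90aa1, the stress-inducible chaperone, at chr12:110695686-110696709. Hes1 ranked 33.9, 36.7, 38.2 and 35.7 in Mki67-/- libraries, against 55.05, 62.8, 62.98 and 58.04 in WT libraries of pro-B cells, a difference of -23.6 ± 3.21 (SE) points (adjusted p = 0.000126). In pre-pro-B cells Hes1 was weak throughout, with 2.23, 8.04, 13.5 and 6.74 in Mki67-/- libraries, against 3.20, 14.6, 4.28 and 6.14 in WT libraries, and the difference between the 2 stages' genotype differences was -24.2 ± 4.54 (SE) (adjusted p = 0.0154). In small pre-B cells it stood at 38.3, 44.6, 38.1 and 43.9 in Mki67-/- libraries, against 54.6, 52.9, 51.4 and 50.2 in WT libraries. Hsp90aa1 ranked 71.9, 71.1, 68.5 and 67.5 in Mki67-/- libraries, against 92.4, 91.7, 84.5 and 86.7 in WT libraries of pro-B cells, -19.1 ± 2.62 (SE) points (adjusted p = 0.000126), and its groups overlapped at both other stages. That call was lost by fold enrichment, and that of Hes1 among all merged peaks, where the average over stages was lost as well. The 3′ end of Selp, the adhesion receptor P-selectin, was -19.8 points lower, Spry4, an inhibitor of receptor tyrosine kinase signalling, -17.8, and Zfp148, a zinc-finger factor, -22.6. Higher beside Srp54c were Tnfsf4 (25.4 points), the OX40 ligand, the 3′ end of Paqr8 (17.6), Gpt2 (12.02), a mitochondrial aminotransferase, and Cops7b (7.07), a subunit of the COP9 signalosome. By fold enrichment the calls of Tnfsf4, Gpt2, Cops7b and Spry4 were lost.

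In small pre-B cells 366 regions were called, 273 higher and 93 lower in Mki67-/- (3.43%, against 5.92% of all 26804, 4.22% as higher and 1.7% as lower, and 7.58% of the other constant regions). By fold enrichment 119 were higher and 89 lower. The count was 219, 234 and 237 without WT small pre-B replicates 1, 2 and 3, and 234 without the 3 libraries that stand apart. Of the 637 regions at 3′ ends 43 were called (6.75%), and of the 8048 at starts 237 (2.95%). Lyplal1, a relative of lysophospholipases with the shared stretch at chr1:186116796-186117455, ranked 63.2, 57.2, 63.2 and 61.9 in Mki67-/- libraries, against 17.3, 15.6, 27.7 and 17.5 in WT libraries, a difference of 41.9 ± 3.62 (SE) points (adjusted p = 9.91e-09). In pro-B cells its groups overlapped, with 55.3, 52.95, 58.7 and 61.8 in Mki67-/- libraries, against 48.7, 55.2, 50.5 and 37.9 in WT libraries. In pre-pro-B cells it had 51.3, 50.7, 55.9 and 51.4 in Mki67-/- libraries, against 44.1, 42.5, 36.9 and 33.7 in WT libraries. Eml6 at chr11:30026023-30026265 ranked 33.4, 47.4, 32.8 and 48.1 in Mki67-/- libraries, against 3.14, 2.22, 5.25 and 4.95 in WT libraries, 36.5 ± 3.19 (SE) points (adjusted p = 1.12e-08). Its ranks in pro-B cells were 86.6, 83.8, 86.3 and 82.9 in Mki67-/- libraries, against 75.6, 79.2, 81.03 and 79.7 in WT libraries, so that the fall in small pre-B cells described above went less far in Mki67-/- cells. Ints4 had the same shape, with 57.1, 62.4, 53.5 and 60.6 in Mki67-/- libraries, against 38.2, 40.7, 35.03 and 42.1 in WT libraries of small pre-B cells and 84.9 to 92.4 in all libraries of the earlier stages, a genotype difference of 19.4 points. Tbc1d10c (23.5 points), an inhibitor of calcineurin and Ras in lymphocytes, and the 3′ end of Hnrnpl (25.5), a splicing regulator, were also higher, the first not by fold enrichment. Lower were Tspan32, a tetraspanin of blood cells, with 4.25, 9.46, 11.6 and 20.4 in Mki67-/- libraries, against 32.1, 36.8, 34.6 and 32.9 in WT libraries (-22.7 ± 4.46 (SE) points, adjusted p = 0.00149), Tbc1d17 (-22.9), Fzd6 (-17.6), a Wnt receptor, Nfam1 (-17.1), an activating receptor of B cells, and Osgin2 (-17). The calls of Tbc1d17, Fzd6, Nfam1 and Osgin2 were lost among all merged peaks.

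Averaged over the stages, 626 regions were called, 387 higher and 239 lower in Mki67-/- (5.86%, against 7.53% of all, 4.72% as higher and 2.81% as lower, and 8.64% of the other constant regions). The median absolute difference was 1.53 points, against 2.40 in the other regions, and 0.739% moved by over 10 points, against 2.33%. The split was 204 and 67 by fold enrichment and 72 and 119 among all merged peaks. Without WT pro-B replicate 2 the count was 410, and with coverage as a covariate it was 394. Srp54c led with 26.6 ± 2.00 (SE) points (adjusted p = 1.56e-09), followed by Lyplal1 (21.4), Dglucy (21.9), a D-glutamate cyclase of mitochondria, Tnfsf4 (17.5) and Eml6 (16.2). Dglucy ranked 78.2, 78.8, 80.2 and 77.95 in Mki67-/- libraries, against 49.1, 57.3, 63.01 and 59.2 in WT libraries of pro-B cells. Lower were Tspan32 (-17.03 points), Hes1 (-11.3), Tceal8 (-10.7), Nadsyn1 (-6.67), the NAD synthetase, and Gpatch11 (-5.78). By fold enrichment the calls of Lyplal1, Gpatch11 and Nadsyn1 were lost. Promoters in regions higher in Mki67-/- held a CCAAT box in 58.5% of 306 and those in regions lower in 27.8% of 173, which was not tested. Tspan32 and Nadsyn1 lie within 10 Mb of Mki67 on chromosome 7, where 155 of the 10686 regions lie (1.45%) and 11 of the 626 called (1.76%). For the single stages these were 0 of 80, 10 of 432 (2.31%) and 4 of 366 (1.09%), and for the genotype calls in width described below 0 of 29, 3 of 45 (6.67%) and 5 of 147 (3.40%), with 2 of 61 on average. None of these shares was tested.

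**Figure D5:**
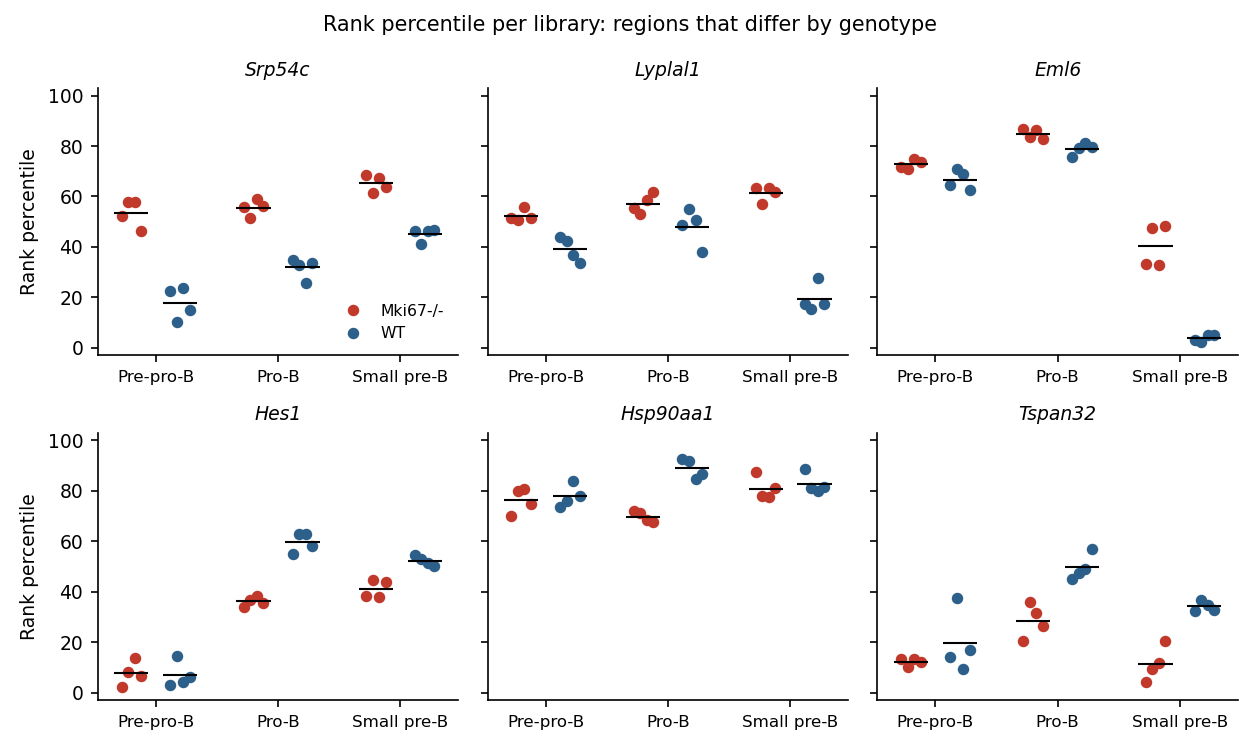
Rank percentile (y axis, 100 the strongest) of 6 gene-end regions in each Mki67-/- and WT library of the 3 stages (x axis), with bars at the mean of 4 libraries. Srp54c is higher in Mki67-/- libraries at all 3 stages, Lyplal1 and Eml6 most clearly in small pre-B cells, and Hes1, Hsp90aa1 and Tspan32 are lower in Mki67-/- pro-B libraries.

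The genotype difference itself changed with stage in 203 regions. Between pro-B and pre-pro-B cells it differed in 95 regions, 15 with a more positive and 80 with a more negative difference in pro-B cells (0.664% of all 26804 were called). Between small pre-B and pre-pro-B cells it differed in 89, 68 more positive and 21 more negative (1.46% of all), and between small pre-B and pro-B cells in 59, 57 more positive and 2 more negative (0.683% of all). The total was 739, 572 and 125 without WT replicate 2, Mki67-/- replicate 1 and Mki67-/- replicate 3 of pre-pro-B cells. It was 87, 122, 114 and 134 without WT replicates 2 and 3 and Mki67-/- replicates 1 and 4 of pro-B cells, and 134, 127 and 126 without WT replicates 1 and 2 and Mki67-/- replicate 2 of small pre-B cells. It was 122 without the 3 libraries that stand apart. Ptpn23, a phosphatase of endosomal sorting, ranked 76.3, 75.9, 80.6 and 75.9 in Mki67-/- pro-B libraries, against 84.8, 89.9, 90.1 and 88.0 in WT pro-B libraries, and its genotype difference there minus that in pre-pro-B cells was −17.2 points. For Eml6 the difference in small pre-B cells was 30.6 ± 4.52 (SE) points above that in pro-B cells (adjusted p = 0.000427), and for Lyplal1 32.8 ± 5.11 (SE) (adjusted p = 0.000742). At Garem1 the genotype difference was -15 points at the pre-pro-B stage and 20.6 at the small pre-B stage, a change of 35.6 ± 4.81 (SE) (adjusted p = 7.38e-05).

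In relative width still fewer regions were called as different between genotypes. In pre-pro-B cells 29 were called, 2 wider and 27 narrower in Mki67-/- (0.271%, against 0.384% of all 26804, 0.0298% as wider and 0.354% as narrower). The count was 15, 132 and 19 without WT replicates 1, 2 and 4, 93 and 48 without Mki67-/- replicates 2 and 3, and 19 without the 3 libraries that stand apart. In pro-B cells 31 were wider and 14 narrower, 45 in all (0.421%, against 0.686% of all, 0.265% and 0.422%), and 17 without WT pro-B replicate 2 and 25 without Mki67-/- pro-B replicate 4. In small pre-B cells 102 were wider and 45 narrower, 147 in all (1.38%, against 2.38%, 1.87% and 0.504%). Averaged over stages the count was 61, with 42 wider and 19 narrower (0.571%, against 0.959%, 0.634% and 0.325%). It became 34, 92 and 35 without WT pre-pro-B replicates 1 and 2 and WT pro-B replicate 2, 36 with coverage as a covariate, and 11 wider and 10 narrower when the width of the strongest peak alone was used. The genotype difference in width changed with stage in 11 regions between pro-B and pre-pro-B cells (0.138% of all), 36 between small pre-B and pre-pro-B cells (0.634%) and 21 between small pre-B and pro-B cells (0.504%), 48 regions in total. That total was 92 without WT pre-pro-B replicate 2 and 78 without Mki67-/- small pre-B replicate 1.

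At Echs1, a mitochondrial enoyl-CoA hydratase that lies within 10 Mb of Mki67, the start was 910, 987, 1000 and 983 bp wide in Mki67-/- pro-B libraries, against 588, 529, 526 and 556 bp in WT pro-B libraries (0.80 ± 0.07 (SE) on the log2 scale, adjusted p = 5.55e-07). In pre-pro-B cells the groups overlapped. The width of the strongest peak alone gave −0.09 in pro-B cells, so the difference was in the width covered outside the strongest peak. The start of Haus8, a microtubule-organizing protein of the spindle, was 1135, 1134, 983 and 1136 bp wide in Mki67-/- small pre-B libraries, against 757, 739, 750 and 750 bp in WT libraries (0.55 ± 0.05 (SE), adjusted p = 2.37e-07). The 3′ end of Plekho2 measured 541, 625, 494 and 568 bp in Mki67-/- and 282, 264, 271 and 298 bp in WT small pre-B libraries (1.0 ± 0.08 (SE), adjusted p = 7.92e-08), so that its narrowing in small pre-B cells was smaller in Mki67-/- cells. None of these 3 pairs of groups overlapped, which is no further support since the regions were chosen by their small adjusted p.

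At the 3′ end of Fblim1, an adaptor of cell adhesion sites, widths were 280, 223, 208 and 182 bp in Mki67-/- and 702, 405, 589 and 751 bp in WT pre-pro-B libraries (-1.33 ± 0.11 (SE), adjusted p = 1.12e-06), while at both later stages the groups overlapped. Narrower with it in Mki67-/- pre-pro-B cells were Gpr45 (-0.77), the Pex6 3′ end (-1.07) and Zfp354b (-0.93), and wider were Sit1 (1.18) and the histone gene H4c18 (0.54), whose copies may share reads. In Mki67-/- pro-B cells Clk2 (0.53), a kinase of splicing factors, Dipk2a (0.41), Bbc3 (0.43), the cell death protein Puma, and Fos (0.57), an immediate-early factor, were wider beside Echs1. Tspan32 (-0.95), the Cep43 3′ end (-0.56), Tnfrsf14 (-0.68), a receptor that tunes lymphocyte activation, Coa3 (-0.51) and Numbl (-0.33) were narrower. Coa3 lost its call without Mki67-/- pro-B 3 or 4 or WT pro-B 2 or 3, Numbl without Mki67-/- pro-B 3 or WT pro-B 2, and Tnfrsf14 without Mki67-/- pro-B 4 or WT pro-B 2. In small pre-B cells Rmc1 (0.61), Dglucy (0.60) and Styk1 (0.78) were wider in Mki67-/-, and Rnd3 (-0.75), the Ppp1r15a 3′ end (-0.52), Hbegf (-0.50), a growth factor, and Cped1 (-0.37) were narrower. With the strongest peak alone the calls of Zfp354b, Sit1, H4c18, Dglucy, Clk2, Dipk2a, Fos, Tspan32, Coa3, Tnfrsf14, Cped1 and Ppp1r15a were lost, and that of Bbc3 was −0.0372.

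A last comparison, chosen after seeing the data, set the 14 libraries with peaks at 2 or more of 4 genes of chromosome Y against the 10 without. Only 11 of the 10686 regions were called, 9 of them lower in libraries with Y peaks (0.276% of all 26804 were called). The 4 on chromosome X were Kdm6a (−12.8 points) and Kdm5c (−7.73), histone demethylases, Eif2s3x (−11.3), a translation initiation factor, and Pbdc1 (−12.9), and the first 3 of these genes are known to escape X inactivation. Kdm6a ranked 66.0 to 91.0 (median 86.0) in the libraries with Y peaks and 88.3 to 97.2 (median 96.1) in the others, so the ranges overlapped at their edge. Of the 14 libraries 7 were Mki67-/- and 7 WT, and adding the term to the fit moved no count of genotype calls by over 1.5 times. In the pre-pro-B and pro-B groups of both genotypes, replicates 1 and 2 had no such peaks and replicates 3 and 4 had them at all 4 genes. In both small pre-B groups only replicate 1 was among the libraries without. The comparison is thus tied to replicate number and uneven over the stages.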

How the data were processed

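The authors deposited 1 ATAC-seq peak list per library on mm10. Trimmomatic, MACS2, deepTools, DiffBind and DESeq2 are named in the submitters' processing notes, and the aligner is not given in the sources used here. In the deposited lists each row holds a position (start and end), a whole-number score that was 10 times the −log10 q in over 99% of rows, the fold enrichment over that library's own local background, and the −log10 p and −log10 q of the summit, with −log10 q of at least 2. Lists hold no read counts, so depth is unknown beyond the background coverage, which was solved from fold enrichment and p at 3000 weak summits per library (−log10 q under 30, Poisson, p matched within 0.01 on the −log10 scale).

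Rows were merged per library and across the 24 libraries (Python 3.11.15, pandas 2.3.3, numpy 2.4.6, scipy 1.17.1). For each of 26804 constant regions the rank percentile of the highest −log10 q and the centred log2 covered width were fitted with limma 3.58.1 (R 4.3.3, trend) on 6 groups, with Benjamini-Hochberg adjustment over all 26804 regions. Gene ends and promoter strands came from RefSeq tables of the mm10 assembly. All 477 entries of 16 gene lists matched. The fits were tested on simulated data.

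Regions are named for the gene whose end is nearest. Named were, for each measure and contrast, up to 5 called regions per direction with the smallest adjusted p, the 5 widest, narrowest, strongest and weakest, the 5 steadiest of middle rank, up to 3 called per gene list and stage step, and Mki67; single names from these were then described, and a few are not reported here. Regions named for a contrast were chosen by small adjusted p, so groups that do not overlap there are no further support. The members, lists and rules were chosen with earlier results of these data known. Alternatives covered the window, the peak threshold, the ranking scale, the centring, coverage, sex and each library left out.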

Additional observations from a re-analysis of the deposited data

Results flagged for a closer look

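Of 126 groups of 4 libraries that were looked at, 10 held a library far from its 3 fellows by Dixon's criterion, which chance alone does in about 1 of 20 groups. WT pre-pro-B replicate 2 had 3.33 summits per gene-end region, fewer than the other WT pre-pro-B libraries. In WT pro-B replicate 2, gene-end regions made up 81.5% of the strongest 1000 regions, more than in the other 3. For Srp54c, WT small pre-B replicate 2 had a rank of 41.0, below its fellows. Tceal8 stood apart in Mki67-/- pre-pro-B replicate 3 with a rank of 17.4 and in WT small pre-B replicate 3 with 7.38. Lyplal1 did so in Mki67-/- pre-pro-B replicate 3 with 55.9 and in WT small pre-B replicate 3 with 27.7. The width of Cped1 stood apart in Mki67-/- pre-pro-B replicate 4 at 1392 bp and in Mki67-/- pro-B replicate 2 at 908 bp. Pou2af1 ranked 6.62 in WT pre-pro-B replicate 4, above the other WT pre-pro-B libraries and far below every later library.

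For some of the regions named above for a genotype difference, that difference, Mki67-/- minus WT, changed with stage by the interaction test of limma with Benjamini-Hochberg adjustment. In rank points, the change in pro-B minus pre-pro-B cells was positive at Paqr8 (16.7), Gpt2 (14.4) and Cops7b (7.87) and negative at Msh5 (−12.00), Hes1 (−24.2), Hsp90aa1 (−17.4), Selp (−17.9) and Zfp148 (−23.4), with adjusted p of 0.0154 to 0.0413. In small pre-B minus pre-pro-B cells it was positive at Garem1 (35.6), Gpt2 (12.6), Lyplal1 (28.8), Eml6 (30.5), Tbc1d10c (20.5), Ints4 (21.3), Hnrnpl (23.4) and Dglucy (28.7), with adjusted p of 7.38e-05 to 0.0175. It was negative at Msh5 (−10.9), Osgin2 (−16.5) and Nfam1 (−20.02), with adjusted p of 0.0405 to 0.0463. In small pre-B minus pro-B cells it was positive at Garem1 (24.6), Hsp90aa1 (17.1), Selp (20.5), Spry4 (19.6), Lyplal1 (32.8), Eml6 (30.6), Tbc1d10c (21.1), Ints4 (17.8) and Hnrnpl (24.8), with adjusted p of 0.000427 to 0.0237.

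In relative width on the log2 scale, the change in pro-B minus pre-pro-B cells was positive at Fblim1 (1.30), Gpr45 (0.74), Pex6 (1.08), Zfp354b (1.00), Echs1 (0.70) and Dipk2a (0.46) and negative at Cep43 (−0.67), with adjusted p of 0.000448 to 0.0489. In small pre-B minus pre-pro-B cells it was positive at Fblim1 (1.36), Gpr45 (0.68), Zfp354b (0.93), Echs1 (0.49), Plekho2 (0.75), Haus8 (0.55), Rmc1 (0.52), Dglucy (0.44) and Styk1 (0.74) and negative at Cped1 (−0.42), Ppp1r15a (−0.59) and Rnd3 (−0.90), with adjusted p of 6.30e-05 to 0.0278. In small pre-B minus pro-B cells it was positive at Plekho2 (1.00), Haus8 (0.48), Rmc1 (0.67) and Styk1 (0.69) and negative at Dipk2a (−0.46) and Cped1 (−0.50), with adjusted p of 4.13e-05 to 0.0157.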

How the results depend on the processing

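The number of gene-end regions was 10580 with a shared stretch required, 10544 and 9899 with peaks of −log10 q of at least 5 and 10, 9908 and 11806 with windows of 500 bp and 2 kb, and 10686 to 10867 without 1 library. Of 488 alternatives over 15 counts, 422 stayed within 1.5 times, and the causes of the others were not tested. For rank, genotype calls in pre-pro-B, pro-B, small pre-B cells and averaged over stages were 47, 138, 208 and 271 by fold enrichment and 20, 227, 112 and 191 among all merged peaks. Normal scores gave 49 in pre-pro-B and 282 in pro-B cells, no variance trend 22 in pre-pro-B cells, coverage as a covariate 27 in pre-pro-B cells and 394 on average. Without the 3 libraries that stand apart there were 41 calls at the pre-pro-B stage and 234 at the small pre-B stage. Regions whose genotype difference changed with stage numbered 64 by fold enrichment, 52 among all merged peaks, 403 over regions in at least 12 libraries and 122 without the 3 libraries. For relative width, no centring gave 62, 26, 81 and 20 genotype calls in the same order. The strongest peak alone gave 21 on average and 31 for changes with stage, coverage as a covariate 36 on average, dropping the 3 libraries 19 in pre-pro-B cells, and WT libraries alone 2104 at the step to small pre-B cells.

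Leaving out 1 library gave 40 to 590, 82 to 547, 219 to 428 and 410 to 938 genotype calls for rank in the same order, 87 to 739 changes with stage, and 7914 to 8200 and 4783 to 5237 calls at the 2 stage steps. For width the ranges were 15 to 132, 17 to 54, 112 to 162 and 34 to 92, with 36 to 92 changes with stage, and 6046 to 6450 and 2881 to 3593 at the steps.

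Replicate numbers were not taken to pair the libraries, since not every same-numbered pair correlated above 0.1. Over 60 pairs of same-numbered libraries the correlation of deviations from group means ran from −0.36 to 0.21 (median 0.04, against −0.01 for other pairs) for rank, and 11 of 24 libraries correlated best with their own number, a hint of pairing from the data and not from the design. Peaks at chromosome Y genes also followed the replicate number in the pre-pro-B and pro-B groups, as given above. With the replicate number as a block, the rank counts were 79, 446, 387 and 634 for genotype, 8105 and 5087 for the stage steps and 227 for changes with stage. The width counts under the block were 25, 33, 128, 50, 6179, 3051 and 37. All stayed within 1.5 times, and of the named calls that of Tarsl2 in pre-pro-B cells was lost.

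Of 7204 settings over 216 named differences, 7041 kept direction and call, 155 in 56 differences lost the call and 8 reversed. Reversed were the pro-B genotype differences in width of Echs1 (−0.0932) and Bbc3 (−0.0372) with the strongest peak alone. By fold enrichment the step to small pre-B cells reversed at Psmb3 (0.0686 points), Pola1 (6.21), Cdc20 (2.81), Ckm (−3.47) and Mki67 (1.66), and the step to pro-B cells at Bmp1 (0.676).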
